A study of Mus musculus with 16 samples.

Results

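Imprinted genes are transcribed mainly from the copy inherited from 1 parent, because a methylation mark set in the egg or the sperm is kept through early development. In the mouse these genes lie in clusters, each under a shared control region, and many of them act on the growth of the embryo and placenta. Their marks and transcript levels are known to vary between pluripotent cultures, so they are often used to describe a stem cell line. The 10 imprinted genes described here are H19, Igf2, Peg3, Snrpn, Peg10, Sgce, Mest, Plagl1, Nnat and Impact, which all lie outside the Dlk1-Dio3 cluster. They were taken by symbol from a table of 34042 genes. All 10 had a row there, and all 10 were among the 18555 genes that passed the filter on low counts. The counts do not separate the parental copies, so each level is that of both copies together, and imprinting itself was not measured.

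Bulk RNA sequencing gave 16 libraries of mouse pluripotent stem cells, with 22069338 to 33290250 counts each. Formative stem cells (FS), cultures meant to hold an epiblast state between naive and primed, were grown in A3XR medium. They came from the lines 5ar1 (passages 10, 12 and 14) and 5ar3 (passages 4, 5 and 12). Epiblast stem cells, the primed state, came from the line AF32 in AF medium (EpiSC_AF, passages 13, 14 and 15) and from the line AFX6 in AFX medium (EpiSC_AFX, passages 5, 8 and 12). Embryonic stem cells (ES), the naive state, came from the line E14IV-C in 2iL medium, at passages 12, 13, 15 and 20. The labels name no genotype or further treatment and give no recipe for the media. Libraries of a line are passages of that line, so a test measures the spread between passages, which may be technical. The group comparisons fit a single mean for FS, so their spread also holds the difference between its 2 lines. FS alone has 2 lines, so in the other groups the line and the medium cannot be told apart.

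The labelled cell types were checked against marker genes, as sums in CPM (counts scaled to library size, with TMM factors). The 6 naive markers summed to 2224 to 3471 CPM in ES and to 4.43 to 12.8 CPM elsewhere. The 5 epiblast markers summed to 39.6 to 103.0 CPM in ES and to 839 to 2277 CPM elsewhere. Markers of extraembryonic endoderm, 8 genes of which several also mark other endoderm, summed to 46.7 to 126.0 CPM in AF32, 3.22 to 17.6 CPM in FS and 3.11 to 4.04 CPM in ES. AFX6 at passage 12 stood apart from its line, with 34.6 CPM of these markers against 4.07 and 5.22 CPM. There Sox17 led with 13.1 CPM, Afp was at 0 and Ttr at 0.0339 CPM. Fibroblast markers, 10 genes, summed to 5.47 to 5.65 CPM in ES and 21.003 to 96.8 CPM elsewhere. Neural markers, 8 genes, summed to 53.1 to 127 CPM in ES and 291 to 714 CPM elsewhere, where FS (291 to 546 CPM) overlapped both epiblast stem cell lines. Nes led these sums outside ES, at 188 to 400 CPM in FS and 264 to 665 CPM in epiblast stem cells. Tubb3 was at 59.1 to 97.8 CPM in FS and 14.9 to 36.3 CPM in epiblast stem cells. By edgeR at an adjusted p under 0.05, 2 of 7 tested were higher and 1 lower in FS than in EpiSC_AFX. Without AFX6 at passage 12 these counts were 0 and 1, while calls over all genes fell from 927 to 543. Against EpiSC_AF 1 of the 7 was higher and 0 lower with all libraries. Of all genes 5.00% and 16.6% passed against EpiSC_AFX and EpiSC_AF. Trophoblast markers, 8 genes, summed to 51.1 to 66.4 CPM in ES and 5.15 to 19.6 CPM elsewhere. Most of the ES sum was Tfap2c alone, at 44.2 to 61.9 CPM. Ascl2 went the other way, at 0.425 to 0.768 CPM in ES and 1.45 to 7.23 CPM elsewhere. Mitochondrial rRNA took 40.1% of the counts of ES at passage 12 and 11.0% to 27.8% elsewhere. In bulk RNA, fewer cells of a type and less RNA per cell cannot be told apart.

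The marks of many imprinted genes are kept through the loss of methylation after fertilisation by ZFP57, a zinc finger protein that binds the hexamer TGCCGC when it is methylated. RefSeq windows on GRCm38.p6, from 250 bases before a transcript start to 50 after it, were found for 6 of the 10 genes (Igf2, Peg3, Snrpn, Mest, Plagl1 and Nnat). The hexamer was searched on both strands, as TGCCGC and GCGGCA, and no other motif was searched. It was in 6 of the 14 windows of these genes, against 11.6% of the 32851 windows in the table. Of the 6, the Mest windows at chr6:30737800 and chr6:30737803 overlap and hold the same sites, so these are counted more than once. The hexamer itself holds a CpG, and the windows were not matched for CpG content. The shares are thus no measure of enrichment. The 3 sequences printed here are shown because Mest and Plagl1 hold the hexamer before the start, and because Nnat, which holds it after the start, differed most between FS and the epiblast stem cells. Each is the 250 bases before the start, 5′ to 3′ on the plus strand, with the hexamer in capitals.
Mest, chr6:30737800-30738049: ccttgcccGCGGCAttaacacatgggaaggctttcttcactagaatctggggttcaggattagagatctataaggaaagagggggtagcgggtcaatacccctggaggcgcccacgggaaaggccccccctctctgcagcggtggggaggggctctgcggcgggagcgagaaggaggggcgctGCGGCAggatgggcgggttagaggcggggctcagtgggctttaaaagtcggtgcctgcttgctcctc
Plagl1, chr10:13090582-13090831: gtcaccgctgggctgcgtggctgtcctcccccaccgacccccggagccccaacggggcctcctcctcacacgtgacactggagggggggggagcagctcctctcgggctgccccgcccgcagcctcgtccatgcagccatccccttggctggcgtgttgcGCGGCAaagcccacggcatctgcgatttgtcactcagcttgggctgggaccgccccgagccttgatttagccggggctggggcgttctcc
Nnat, chr2:157559828-157560077: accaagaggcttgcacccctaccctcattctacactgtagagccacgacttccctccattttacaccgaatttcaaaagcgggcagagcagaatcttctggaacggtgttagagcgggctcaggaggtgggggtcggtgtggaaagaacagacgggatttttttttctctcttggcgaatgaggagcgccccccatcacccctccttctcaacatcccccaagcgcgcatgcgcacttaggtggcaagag
The Mest stretch, from the window with most CpG among 3 for this gene, holds the hexamer at 2 places and 14 CpG dinucleotides. The Plagl1 stretch holds it at 1 place and has 19 CpG, and the Nnat stretch has 12 CpG. The median over all windows was 6 CpG. A match describes letters only, since neither methylation nor ZFP57 binding was measured.

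Compared with naive cells, 9 of the 10 genes were called in FS by edgeR's quasi-likelihood test at an adjusted p under 0.05, where 62.8% of all tested genes were called. H19, Igf2, Nnat, Snrpn, Sgce, Mest and Peg3 rose (7 of 10, against 32.9% of all genes), and Plagl1 and Impact fell (2 of 10, against 29.9%). For 8 of the 10, all but Peg10 and Plagl1, the FS and ES libraries did not overlap, as for 46.3% of all genes. The median log2 fold change of the 10 genes was 3.14, against 0.04 over all genes. EpiSC_AFX against ES gave 9 calls, 7 higher and 2 lower, where 54.7% of all genes were called, 28.5% higher and 26.2% lower. EpiSC_AF against ES gave 8 calls, 7 higher and 1 lower, where 56.7% of all genes were called, 29.7% higher and 27.0% lower. These 3 comparisons share the ES libraries.

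Between FS and the epiblast stem cells fewer of the 10 genes were called. FS against EpiSC_AFX gave 2 calls, where 5.00% of all genes were called: Nnat was higher and Peg10 lower in FS. FS against EpiSC_AF gave 4 calls, where 16.6% of all genes were called, 7.84% higher and 8.81% lower. Here H19, Nnat and Snrpn were higher and Peg10 lower in FS. EpiSC_AFX against EpiSC_AF gave 1 call, Nnat, where 4.26% of all genes were called. The libraries of these groups did not overlap for 7 of the 10 (higher in EpiSC_AFX for H19 and Nnat, lower for Igf2, Peg3, Peg10, Sgce and Plagl1), as for 33.9% of all genes. For H19 the lowest AFX6 library, at 8.82 CPM, lay just above the highest of AF32, at 8.78 CPM. The log2 change of H19, 3.04 (edgeR adjusted p 0.0839), fell to 0.98 without AFX6 at passage 12 (edgeR adjusted p 0.575). Without AFX6 at passage 12, FS against EpiSC_AFX also gave 2 calls, but of Nnat and Peg3, both higher in FS. Calls over all genes fell there from 927 to 543. EpiSC_AFX against EpiSC_AF then gave 2 calls, with Peg3 lower in EpiSC_AFX beside the higher Nnat. Here calls over all genes rose from 791 to 924.

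**Figure D1:**
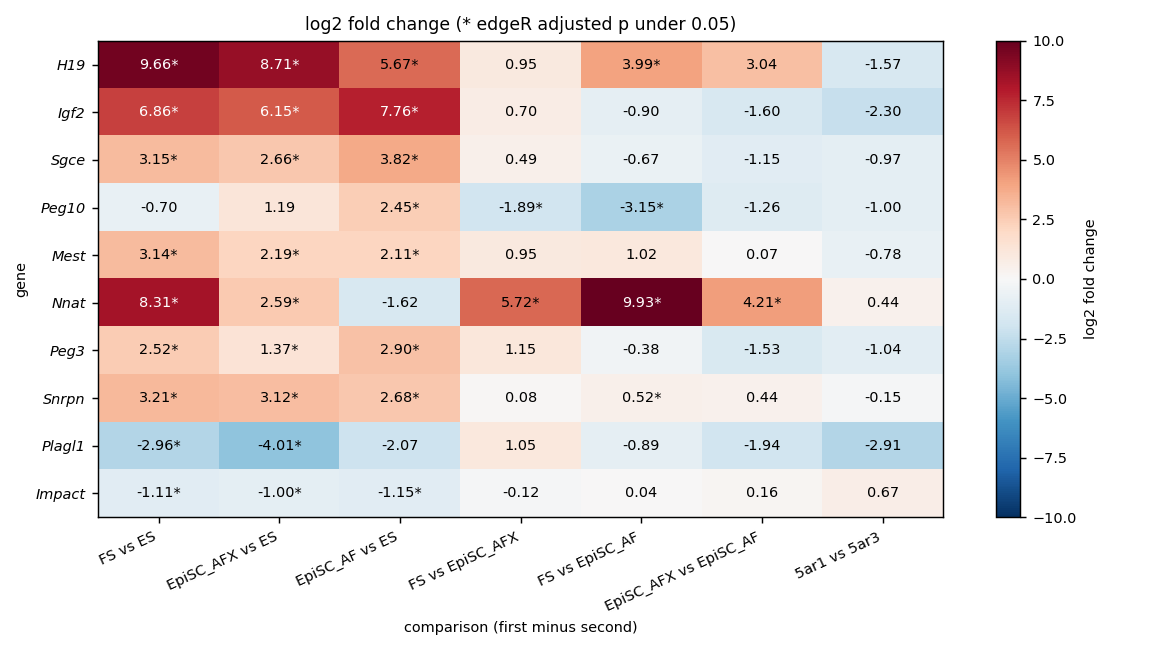
Log2 fold changes of the 10 genes (rows) in each comparison (columns, first group minus second), coloured by direction and size, with an asterisk where the edgeR adjusted p was under 0.05. The columns of FS, EpiSC_AFX and EpiSC_AF against ES hold 9, 9 and 8 asterisks, and those of FS against EpiSC_AFX and EpiSC_AF hold 2 and 4.

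H19 and Igf2 share an imprinting control region on chromosome 7 and lie on its minus strand, at chr7:142575529-142578143 and chr7:142650766-142666816 (GRCm38), with 72623 bases between the gene bodies. H19 is a noncoding RNA made from the maternal copy. Igf2 encodes insulin-like growth factor 2, a growth factor of the embryo made from the paternal copy.

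H19 was at 84.4, 26.3 and 30.0 CPM in 5ar1 and at 248, 110.2 and 58.8 CPM in 5ar3, in passage order. It was at 8.82, 14.3 and 122 CPM in AFX6 and at 8.78, 6.08 and 2.65 CPM in AF32. The ES libraries held 3, 1, 1 and 4 counts of it, or 0.0452 to 0.207 CPM. All FS libraries were thus above all AF32 libraries, while AFX6 at passage 12 lay within the FS range and its other passages below it. The pooled count ratio of H19 in FS to ES was 819.8, with a 95% counting interval of 432 to 1793 that covers counting error only. The log2 fold change was 9.66 against ES (SE 1.26, edgeR adjusted p 5.47e-06) and 3.99 against EpiSC_AF (SE 0.93, edgeR adjusted p 0.00746). Against EpiSC_AFX it was 0.95 (SE 0.77, edgeR adjusted p 0.592), and 3.01 without AFX6 at passage 12 (edgeR adjusted p 0.0579).

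Igf2 was at 23.9, 9.40 and 11.1 CPM in 5ar1 and at 113, 62.2 and 44.6 CPM in 5ar3. It was at 13.4, 9.59 and 57.8 CPM in AFX6 and at 109, 69.4 and 67.6 CPM in AF32, the line with the lowest H19 outside ES. The ES libraries held 20, 5, 4 and 0 counts of it. The FS libraries spread over the whole range of both epiblast stem cell lines, and ES lay below all of them. The pooled count ratio of Igf2 in FS to ES was 119 (95% counting interval 82.6 to 177), with a log2 change of 6.86 (SE 1.05, edgeR adjusted p 3.12e-05). FS did not pass the test against EpiSC_AF, with a log2 change of -0.90 (SE 0.71, edgeR adjusted p 0.437), or against EpiSC_AFX, with 0.70 (SE 0.76, edgeR adjusted p 0.709).

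The balance of this pair differed between lines. The ratio of H19 to Igf2 counts within a library was 1.32 to 3.52 in the 6 FS libraries and 0.0393 to 0.0877 in AF32, where every library held more Igf2 than H19. In AFX6 it was 0.657, 1.49 and 2.101 in passage order, so that the last 2 lay within the FS range. These ratios are descriptions and were not tested. Most exon bases of Igf2 (62.8%) are also annotated to the readthrough gene Gm49394, which had no row among the counted genes. Igf2os, the antisense transcript of Igf2, was at 0.351 to 3.94 CPM in FS, 2.51 to 2.89 CPM in AF32, 0.305 to 1.48 CPM in AFX6 and at 0 in all ES libraries.

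**Figure D2:**
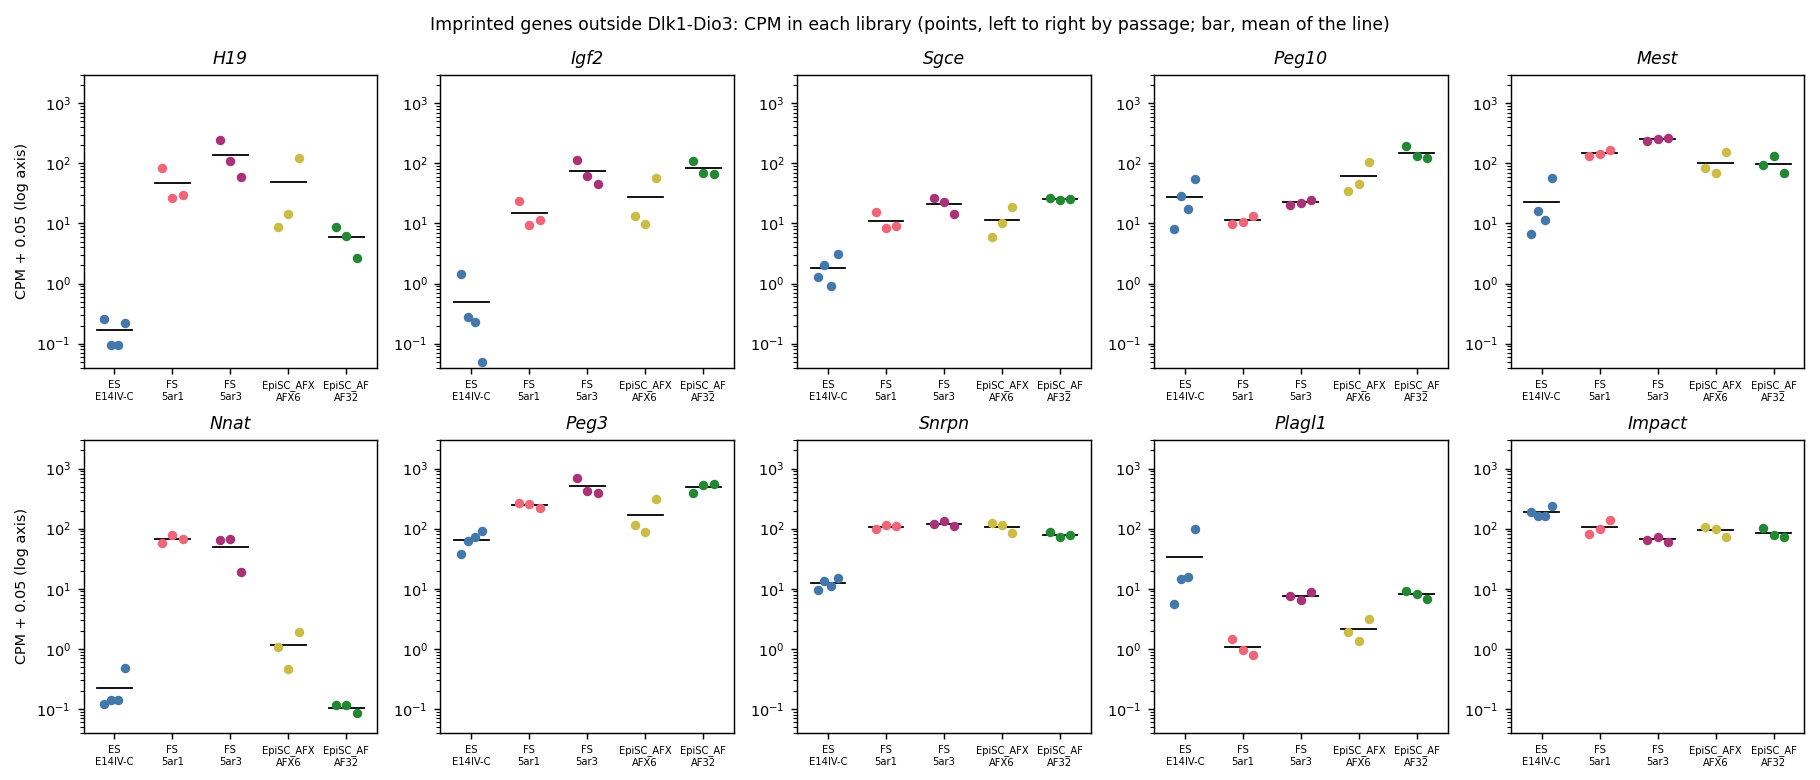
CPM plus 0.05 (log axis) of each of the 10 genes in every library, by line; points are libraries and bars are line means. In the panel of H19 the ES libraries lie at 0.0452 to 0.207 CPM and the AF32 libraries at 2.65 to 8.78 CPM, and in that of Nnat both FS lines lie at 18.7 CPM or more, above every other library.

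Peg10 and Sgce stand head to head on chromosome 6, at chr6:4747306-4760517 on the plus strand and chr6:4674350-4747207 on the minus strand, with starts 99 bases apart. Both are made from the paternal copy. Peg10 encodes a protein derived from a retrotransposon that the placenta needs, and Sgce encodes epsilon-sarcoglycan, a membrane glycoprotein.

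Peg10 was at 9.60, 10.7 and 13.2 CPM in 5ar1 and at 20.3, 21.8 and 24.9 CPM in 5ar3. It was at 34.0, 45.4 and 107 CPM in AFX6, at 191, 133 and 123 CPM in AF32 and at 8.15, 29.0, 17.4 and 54.0 CPM in ES. All 6 FS libraries were below all libraries of AFX6 and AF32, and 5ar1 was below 5ar3, while FS and ES overlapped. The log2 fold change of FS was -3.15 against EpiSC_AF (SE 0.46, edgeR adjusted p 0.000187), an 8.90-fold lower level. Against EpiSC_AFX it was -1.89 (SE 0.45, edgeR adjusted p 0.0238), and without AFX6 at passage 12 the call was lost, at -1.25 (edgeR adjusted p 0.169). The latter call was also lost with 5ar3 as the only FS line, at -1.47 (edgeR adjusted p 0.119). FS did not pass the test against ES, with a log2 change of -0.70 (SE 0.43, edgeR adjusted p 0.165), and passed without ES at passage 12, at -1.002 (edgeR adjusted p 0.0384).

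Sgce followed another order. It was at 8.35 to 15.3 CPM in 5ar1, 14.3 to 26.5 CPM in 5ar3, 5.89 to 18.5 CPM in AFX6, 24.2 to 26.8 CPM in AF32 and 0.866 to 3.02 CPM in ES. FS was above ES by a log2 change of 3.15 (SE 0.43, edgeR adjusted p 6.59e-06), and did not pass the test against either epiblast stem cell group. The ratio of Peg10 to Sgce counts was 0.626 to 1.75 in FS, 4.56 to 5.79 in AFX6, 4.83 to 7.11 in AF32 and 6.56 to 20.1 in ES. No FS library reached the lowest ratio of the other lines, though the starts of the genes lie 99 bases apart. The ratios are of counts, not of levels per length, and were not tested.

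Genes around Peg10 were read from a list of 28 neighbours of the 10 genes, 20 of them tested. Asb4, which encodes an ankyrin repeat protein and lies 623 kb from Peg10, was at 35.4 to 52.8 CPM in AF32 and at 0 to 1.65 CPM in FS. In AFX6 it was at 0.643, 0.474 and 15.01 CPM in passage order, so passage 12 was the high library of its line, as for Peg10. Pon2, a paraoxonase gene 504 kb from Peg10, was at 19.9 to 27.4 CPM in AF32, 7.14 to 10.4 CPM in AFX6 and 2.33 to 6.06 CPM in FS. In FS against EpiSC_AF the log2 change of Asb4 was -6.03 (SE 0.92, edgeR adjusted p 0.000292) and that of Pon2 was -2.76 (SE 0.26, edgeR adjusted p 3.06e-06). Pon2 was also lower in FS than in EpiSC_AFX, by a log2 change of -1.37 (SE 0.27, edgeR adjusted p 0.00642). Casd1, on the other side of Sgce, had a log2 fold change of -0.64 against EpiSC_AF (SE 0.15, edgeR adjusted p 0.00764). Ppp1r9a and Pon3, at 142 and 460 kb, lie nearer to Peg10 than Pon2 and did not meet the rule for naming in this comparison. Over the whole list of 20 tested neighbours, 4 were called lower and 0 higher in FS than in EpiSC_AF, and 16 were not called. Of all genes, 8.81% were called lower and 7.84% higher. The median log2 fold change of the neighbours was -0.10, against 0.04 over all genes.

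**Figure D3:**
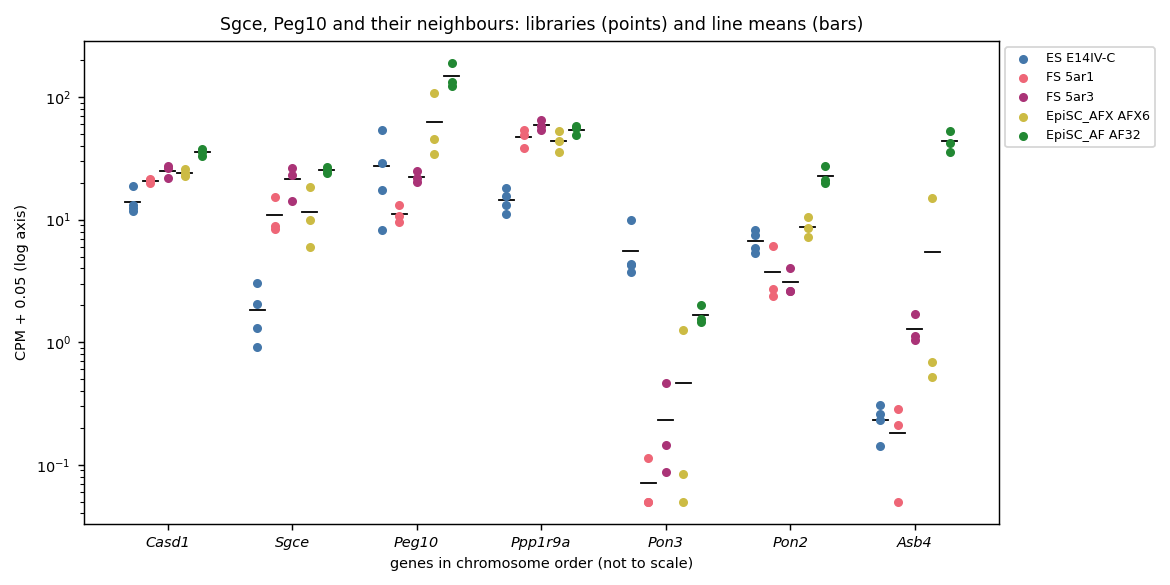
CPM plus 0.05 (log axis) of Sgce, Peg10 and their neighbours in chromosome order (not to scale), with a point for each library, coloured by line, and a bar at each line mean. The AF32 points of Peg10 lie at 123 CPM or more and those of FS at 24.9 CPM or less, while for Sgce FS spans 8.35 to 26.5 CPM and includes all AFX6 libraries but that at 5.89 CPM.

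Nnat encodes neuronatin, a small membrane proteolipid of brain and other tissues that is made from the paternal copy. It lies at chr2:157560078-157562522 inside an intron of Blcap, a gene on the other strand. Nnat was at 57.8, 77.9 and 67.1 CPM in 5ar1 and at 64.7, 66.0 and 18.7 CPM in 5ar3. In AFX6 it was at 1.04, 0.407 and 1.89 CPM, and AF32 held 2, 2 and 1 counts. The ES libraries held 1, 2, 2 and 10 counts. The lowest FS library was thus at 18.7 CPM and the highest of the other groups at 1.89 CPM, and both FS lines were high.

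The log2 fold change of Nnat in FS was 5.72 against EpiSC_AFX (SE 0.53, edgeR adjusted p 1.02e-05). It was 9.93 against EpiSC_AF (SE 0.73, edgeR adjusted p 2.68e-07), where the pooled count ratio was 1066 with a 95% counting interval of 457 to 3284. Against ES it was 8.31 (SE 0.58, edgeR adjusted p 1.63e-09), with a pooled count ratio of 324 (95% counting interval 196 to 580). EpiSC_AFX was above EpiSC_AF at a pooled count ratio of 20.02 (95% counting interval 8.29 to 63.1) and an edgeR adjusted p of 0.00726, though its libraries held 12 to 56 counts. Blcap, which shares no exon base with Nnat, was not called in any of the 8 comparisons.

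Mest encodes an enzyme of the alpha/beta hydrolase family that marks growing mesoderm and is made from the paternal copy. It lies at chr6:30723547-30748465, and 912 of its exon bases are shared with Copg2 on the other strand, which was not called in any of the 8 comparisons. Mest was at 130.3, 141 and 168 CPM in 5ar1 and at 237, 253 and 264 CPM in 5ar3. It was at 83.3, 69.2 and 156 CPM in AFX6, 92.1, 133 and 68.9 CPM in AF32 and 6.63, 16.03, 11.3 and 56.0 CPM in ES. The lines 5ar3 and 5ar1 did not overlap, and the highest ES library, passage 20, stayed below every other library. FS was above ES by a log2 change of 3.14 (SE 0.51, edgeR adjusted p 6.04e-05). FS had a log2 fold change of 1.02 against EpiSC_AF (SE 0.51, edgeR adjusted p 0.197) and 0.95 against EpiSC_AFX (SE 0.51, edgeR adjusted p 0.351), and neither passed the test. The first passed without ES at passage 20 (edgeR adjusted p 0.0429).

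Peg3 and Snrpn, both on chromosome 7 and both made from the paternal copy, had their lowest line mean in ES. Peg3 (chr7:6703892-6730431) encodes a large zinc finger protein that acts on growth and maternal behaviour, and Snrpn (chr7:59982495-60140219) encodes a spliceosome protein in the Prader-Willi region. Peg3 was at 217 to 266 CPM in 5ar1, 397 to 700.3 CPM in 5ar3, 386 to 551 CPM in AF32, 89.0 to 306 CPM in AFX6 and 37.7 to 90.5 CPM in ES. Its level in AFX6 at passages 5 and 8 was 114 and 89.0 CPM, so that passage 8 lay within the ES range, and passage 12 was at 306 CPM. The log2 fold change of Peg3 in FS over ES was 2.52 (SE 0.40, edgeR adjusted p 3.34e-05). In EpiSC_AFX over ES it was 1.37 (SE 0.42, edgeR adjusted p 0.0114), a call that was lost without AFX6 at passage 12, at 0.63 (edgeR adjusted p 0.199). FS against EpiSC_AFX did not pass with all libraries, at 1.15 (SE 0.41, edgeR adjusted p 0.129), and passed without that library, at 1.89 (edgeR adjusted p 0.0228).

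Snrpn lay between 73.0 and 133 CPM in every library outside ES. It was at 96.8 to 133 CPM in FS, 85.1 to 122 CPM in AFX6 and 73.0 to 86.4 CPM in AF32, against 9.54 to 15.2 CPM in ES. FS was 9.22-fold above ES, at a log2 change of 3.21 (SE 0.16, edgeR adjusted p 2.25e-11). FS over EpiSC_AF was called at a log2 change of 0.52 (SE 0.15, edgeR adjusted p 0.0258), and this call was lost when any of the 3 AF32 libraries was left out, with edgeR adjusted p of 0.0569 to 0.126. Snrpn shares 589 exon bases (27.3%) with Gm38393 on the same strand, so reads may have been divided between them. Gm38393 had a log2 fold change of 3.57 in FS over ES (SE 0.22, edgeR adjusted p 3.21e-10) and of 0.65 over EpiSC_AF (SE 0.21, edgeR adjusted p 0.0407).

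Plagl1 and Impact were the genes called higher in ES than in FS. Plagl1 (chr10:13060504-13131694) encodes a zinc finger transcription factor that restrains cell growth and is made from the paternal copy. It was at 1.41, 0.892 and 0.745 CPM in 5ar1 and at 7.48, 6.55 and 8.83 CPM in 5ar3. It was at 1.86, 1.32 and 3.04 CPM in AFX6, 8.97, 8.24 and 6.72 CPM in AF32 and 5.53, 14.6, 15.5 and 98.2 CPM in ES. The 5ar1 and AFX6 libraries were low, 5ar3 and AF32 lay together above them, and ES reached from just below the 5ar3 range to far above it. FS was below ES at a log2 change of -2.96 (SE 0.75, edgeR adjusted p 0.00273). This call was lost without ES at passage 20, at -1.47 (edgeR adjusted p 0.0552), and with passage as a covariate, at -2.33 (edgeR adjusted p 0.137). EpiSC_AFX was called below ES, at -4.01 (SE 1.05, edgeR adjusted p 0.004). EpiSC_AF did not pass the test against ES, at -2.07 (SE 0.93, edgeR adjusted p 0.0693).

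Impact, which encodes a regulator of translation and is made from the paternal copy in mice, was at 60.6 to 138 CPM in FS, 73.3 to 108 CPM in AFX6, 72.2 to 102 CPM in AF32 and 159 to 239 CPM in ES. ES lay above every other library, and the other lines overlapped except that 5ar1 lay above 5ar3. Against ES the log2 change was -1.11 in FS (SE 0.20, edgeR adjusted p 0.000144), -1.15 in EpiSC_AF (SE 0.25, edgeR adjusted p 0.000894) and -0.996 in EpiSC_AFX (SE 0.25, edgeR adjusted p 0.00291). Between FS and EpiSC_AF it was 0.04 (SE 0.23, edgeR adjusted p 0.942).

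The levels of the genes were set against each other per length, as mean CPM per kb of exon. In FS, Snrpn (52.9), Mest (50.4), H19 (37.8) and Nnat (32.1) were highest and Plagl1 (0.552) was lowest. In AF32, Snrpn (36.8) and Peg3 (36.6) led, and H19 was at 2.37 and Nnat at 0.0301. In ES, Impact led with 36.4, the next was Snrpn with 5.71, and H19 was lowest with 0.0476.

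The 2 FS lines, grown in the same medium, offered the comparison of lines within a medium. Of the 10 genes 0 were called between 5ar1 and 5ar3 by edgeR, where 3.88% of all genes were called. By DESeq2 1 of the 10 was called, where 1292 of all genes were called, against 720 by edgeR. An unadjusted edgeR p was under 0.05 for 5 of the 10, but the share of all genes at that threshold was not counted. The libraries of the lines did not overlap for 6 of the 10 (Igf2, Peg3, Peg10, Mest, Plagl1 and Impact), as for 18.7% of all genes. Of these 6, Impact was higher in 5ar1 and the other 5 were higher in 5ar3. Plagl1 had the largest difference, with a log2 change of -2.91 (SE 0.81, edgeR adjusted p 0.0607), followed by Igf2 with -2.30 (SE 0.69, edgeR adjusted p 0.0843). Plagl1 was called when the FS libraries were fitted alone (edgeR adjusted p 0.00687) and Igf2 likewise (edgeR adjusted p 0.041). Leaving out 1 library called Igf2 (without 5ar1 at passage 10, AFX6 at passage 12 or ES at passage 12), Plagl1 (without ES at passage 12 or 20), Peg3 (without AFX6 at passage 12) or Impact (without 5ar1 at passage 10), at most 2 of the 10 at a time. The lines were sampled at different passages, with 5ar3 at 4, 5 and 12, so line and passage are partly mixed. With passage as a covariate, where 431 of all genes were called, 2 of the 10 were called lower in 5ar1. These were Plagl1, at a log2 change of -4.01 (edgeR adjusted p 0.0057), and Peg10, at -1.83 (edgeR adjusted p 0.0378). The endoderm markers summed to 3.22 to 6.75 CPM in 5ar1 and 10.8 to 17.6 CPM in 5ar3. The neural markers summed to 291 to 498 CPM in 5ar1 and 398 to 546 CPM in 5ar3, sums that overlap, but 3 of the 7 tested were called lower in 5ar1 and 0 higher. Among these Sox1 was at 1.05 to 1.31 CPM in 5ar1 and 18.5 to 27.3 CPM in 5ar3, Ncam1 at 17.3 to 40.2 and 80.3 to 107.9 CPM, and Neurog2 at 0.0319 to 0.0741 and 0.419 to 1.37 CPM. The part of either marker list in these differences was not tested.

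A common slope on passage number, with a mean for each line, was called for 0 of the 10 genes by edgeR and 0 by DESeq2, where 0.00539% of all genes were called by edgeR. Peg10, Mest and Plagl1 had an unadjusted p under 0.05, a threshold at which the share of all genes was not counted. Their slopes, as log2 change per 10 passages, were 1.54 for Peg10 (SE 0.42, edgeR adjusted p 0.514), 1.63 for Mest (SE 0.46, edgeR adjusted p 0.523) and 2.14 for Plagl1 (SE 0.63, edgeR adjusted p 0.531). In AFX6, passage 12 had the highest H19, Igf2, Peg3, Peg10, Sgce, Mest, Plagl1 and Nnat and the lowest Snrpn and Impact. It is also the AFX6 library with 34.6 CPM of endoderm markers, and their part in these levels was not tested. In ES, passage 20 had the highest Peg3, Snrpn, Peg10, Sgce, Mest, Plagl1, Nnat and Impact.

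**Figure D4:**
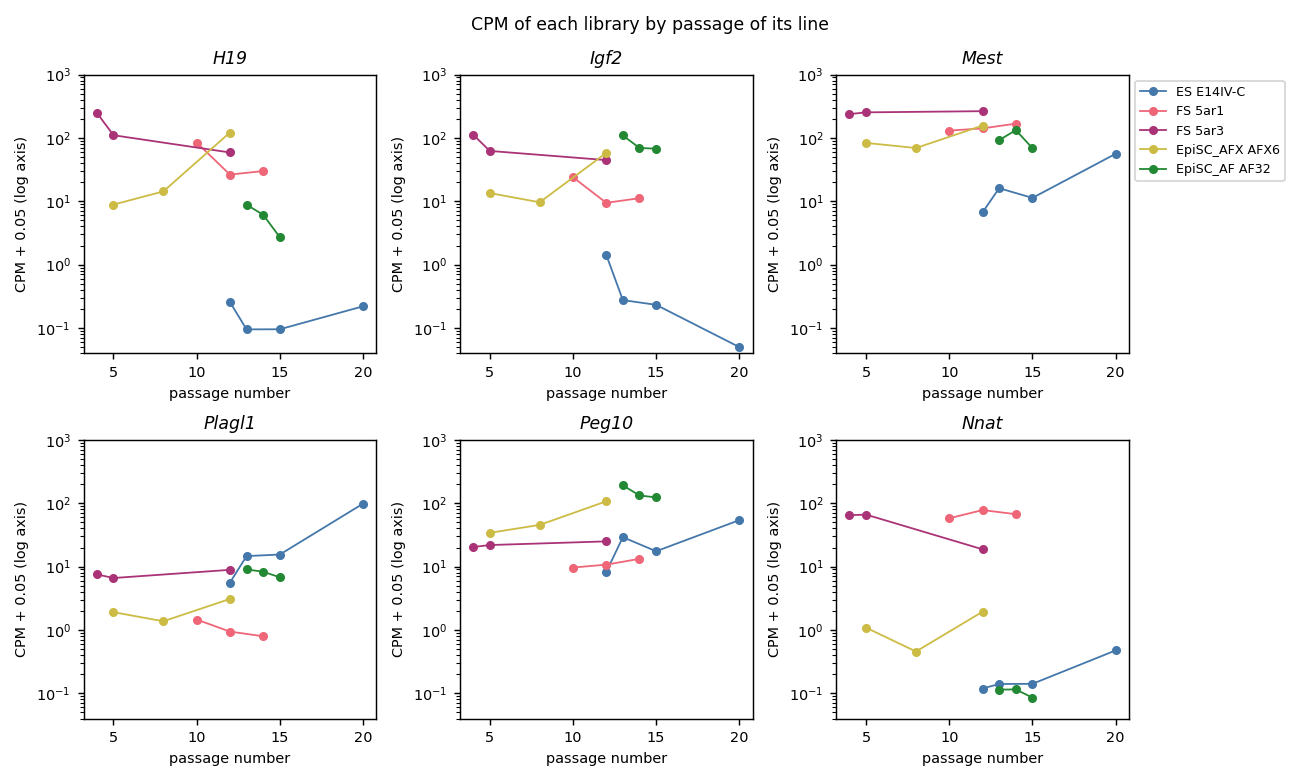
CPM plus 0.05 (log axis) against passage number for genes of the set, with lines joining the libraries of a line. AFX6 rises at passage 12 in H19 (122 CPM) and Igf2 (57.8 CPM), and ES reaches 98.2 CPM of Plagl1 at passage 20.

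Other imprinted genes were read from lists of 22 paternally and 24 maternally expressed genes, of which 18 and 21 were tested. Of the paternally expressed genes 10 were higher and 6 lower in FS than in ES, with a median log2 fold change of 1.10 against 0.04 over all genes. Of the maternally expressed genes 13 were higher and 2 lower, with a median of 1.88, where 32.9% of all genes were called higher and 29.9% lower. Against EpiSC_AFX these counts were 3 higher and 1 lower, and 1 higher and 0 lower, where 5.00% of all genes were called. Without AFX6 at passage 12, calls over all genes fell from 927 to 543. The first of these pairs of counts then became 1 higher and 1 lower, and the second was again 1 and 0. Against EpiSC_AF they were 7 higher and 2 lower, and 2 higher and 5 lower, where 7.84% of all genes were called higher and 8.81% lower.

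Peg13, a paternally expressed noncoding RNA, was high where Nnat was high. It was at 3.50 to 8.19 CPM in FS, 0.428 to 1.55 CPM in AFX6, 0.106 to 0.257 CPM in AF32 and 0 to 0.553 CPM in ES. Its log2 fold change in FS was 2.80 against EpiSC_AFX (SE 0.61, edgeR adjusted p 0.0123) and 5.13 against EpiSC_AF (SE 0.73, edgeR adjusted p 0.000136). Magel2, of the same chromosome region as Snrpn, was at 7.59 to 19.3 CPM in FS, 2.93 to 6.07 CPM in AFX6, 4.39 to 4.73 CPM in AF32 and 0 to 0.207 CPM in ES. Sfmbt2, a Polycomb gene, went the other way, with 2.29 to 7.19 CPM in FS, 11.4 to 34.1 CPM in AFX6, 31.1 to 45.1 CPM in AF32 and 63.0 to 82.1 CPM in ES.

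Kcnq1ot1, the noncoding RNA that silences its cluster in cis, was at 87.6 to 150.1 CPM in ES and at 0.0678 to 1.44 CPM elsewhere. Zfp264, a neighbour of Peg3, was at 4.22 to 14.2 CPM in ES and at 0 to 0.0339 CPM elsewhere. Slc38a4, an amino acid transporter gene, was at 131 to 218 CPM in ES, 37.1 to 60.0 CPM in FS, 8.90 to 30.0 CPM in AFX6 and 0.318 to 1.77 CPM in AF32. These 3 paternally expressed genes thus went against Peg3, Snrpn, Sgce and Mest, which were lowest in ES. Among maternally expressed genes, Grb10, an adaptor protein gene that limits growth, was at 31.1 to 88.7 CPM in ES, 608 to 779 CPM in FS, 706 to 991 CPM in AFX6 and 1447 to 1667 CPM in AF32. Cdkn1c, a cell cycle inhibitor gene, was at 1.66 to 3.07 CPM in ES, 29.7 to 91.4 CPM in FS, 12.3 to 15.8 CPM in AFX6 and 35.4 to 60.0 CPM in AF32.

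**Figure D5:**
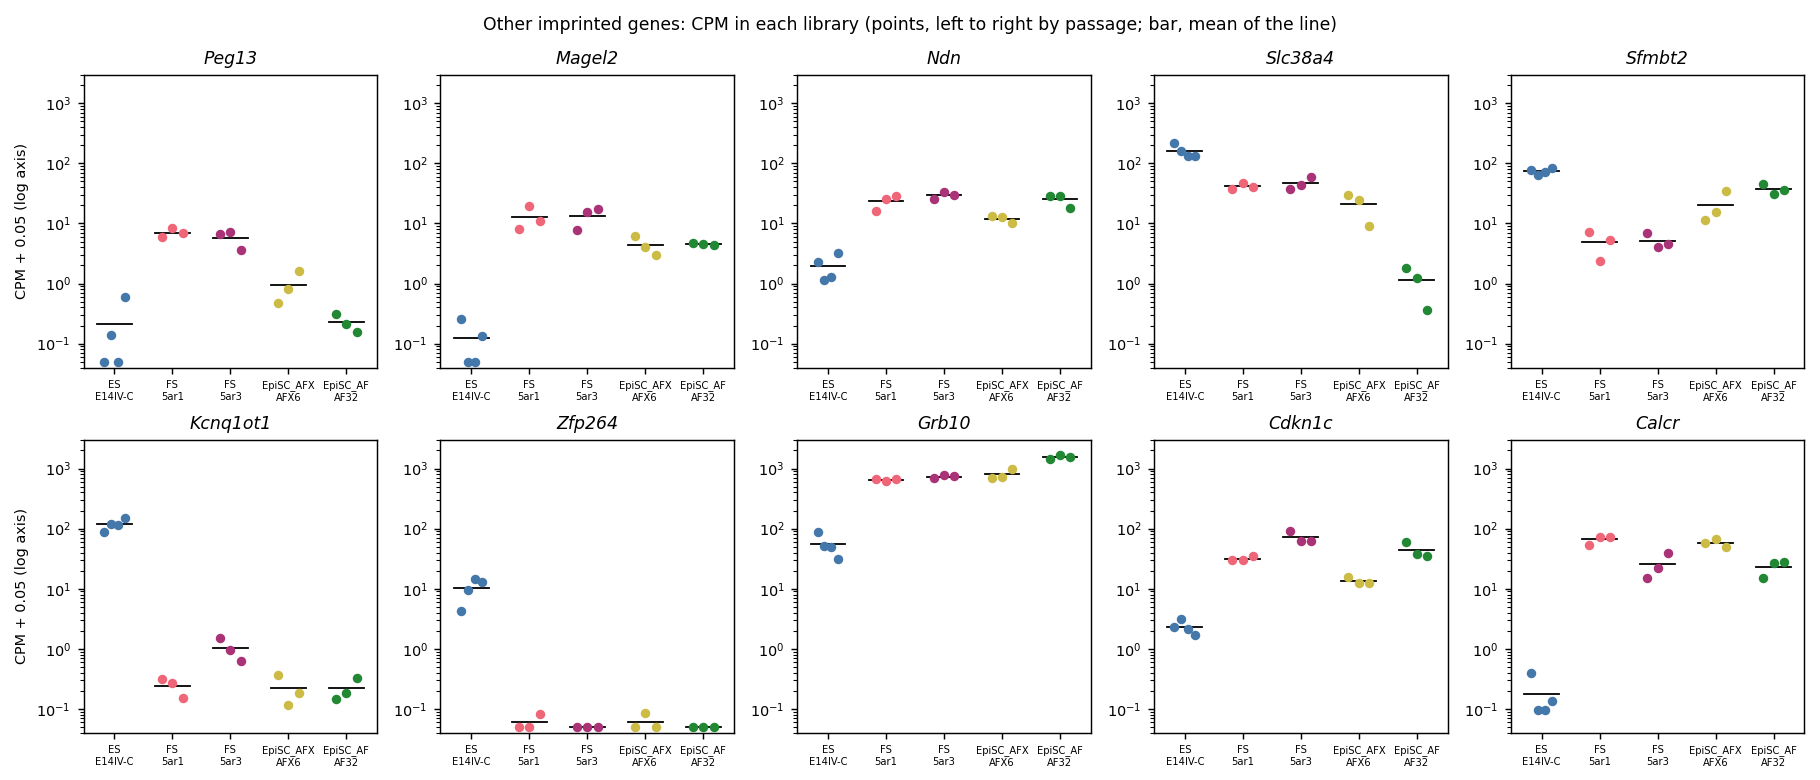
CPM plus 0.05 (log axis) of 10 genes from these lists in every library by line, with bars at line means. Peg13 and Magel2 are highest in the FS lines, while Kcnq1ot1 and Zfp264 lie at or above 4.22 CPM in ES and at or below 1.44 CPM elsewhere.

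Of 15 genes that set, keep or erase DNA methylation marks, 5 were higher and 8 lower in FS than in ES. Of all genes, 32.9% were called higher and 29.9% lower there. The de novo DNA methyltransferase genes Dnmt3a and Dnmt3b were higher, with log2 fold changes of 3.71 (SE 0.18, edgeR adjusted p 2.19e-11) and 4.43 (SE 0.36, edgeR adjusted p 9.67e-09). Dnmt3l also met the rule for naming, with a larger absolute change than these, and is not described here. Dppa3, which protects methylation in the zygote, was at 10.9 to 33.2 CPM in ES and at 0 to 0.0371 CPM in FS. Zfp57 was at 160 to 297 CPM in ES and 31.5 to 59.4 CPM in FS, 36.2 to 41.8 CPM in AFX6 and 42.2 to 55.1 CPM in AF32. Between FS and either epiblast stem cell group 0 of the 15 were called by edgeR or by DESeq2. The edgeR share over all genes was only 5.00% against EpiSC_AFX and 16.6% against EpiSC_AF. An unadjusted edgeR p was under 0.05 for 1 of the 15 against EpiSC_AFX and 3 against EpiSC_AF. The share of all genes at that threshold was not counted.

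The genes whose levels ran most like each of 9 of the 10 over the 16 libraries were found by Pearson's r of log2 CPM among 14805 genes, as a description with no test, since libraries of a line are alike. The first for each was Nrep for Igf2 (r 0.983), Npas3 for Peg3 (0.960), Tubb4a for Snrpn (0.994) and Tmem176b for Sgce (0.969). For the others it was Gnaz for Mest (r 0.969), Tmem185a for Peg10 (0.914), Atp2b4 for Plagl1 (0.920), Gpr162 for Nnat (0.962) and Chchd4 for Impact (0.950). Second in the order were Igsf21, Ednra, Vash2 and Col4a2 in the first set, and Ptpn13, Chmp4b, Ccl25, Peg13 and Ggt1 in the other. Peg13 for Nnat (r 0.959) was the only imprinted gene of these lists among the genes named here.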

How the data were processed

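Total RNA of 16 cultures was extracted with Trizol and a PureLink column, and libraries were made with a directional kit (NEXTflex), per the labels' protocols. The authors deposited raw counts per gene. The submitters' processing notes name Trim Galore, TopHat2 2.1.0, featureCounts 1.5.0 and mm10. The annotation release and the strand setting are not given in the sources used here, so overlapping and antisense genes are uncertain. A further 6 columns matched no sample and were not used.

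Genes with low counts were removed with filterByExpr, leaving 18555. Counts were scaled by TMM and tested with edgeR 4.0.16 (quasi-likelihood, robust, Benjamini-Hochberg over all tested genes, called at an adjusted p under 0.05) in a fit of all libraries with a mean for each group. The 2 FS lines and the passage slope used a mean for each line. Positions, lengths and overlaps came from GENCODE M21 on GRCm38, where 33860 of the 34042 identifiers were found, and promoter windows came from RefSeq on GRCm38.p6. Any pair of libraries of a line differed by more than sampling noise (chi-square of at least 9.13 per degree of freedom). The procedure was tested on simulated data.

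The 10 genes and all lists were chosen with earlier results of these data known. All 10 genes are named. From the lists, named genes were called, did not overlap between groups and reached 5 CPM in the higher group, with up to 4 per list and comparison by size of change. The genes most like H19 are not reported here. Some named list genes are shown without every comparison, and Igf2os, Gm38393, Zfp57 and the genes that overlap the 10 were named for their place or role. Alternatives were DESeq2 size factors, total counts, no filter, a mean of at least 1 CPM, a test against a log2 change of 1, no mitochondrial rRNA genes, DESeq2 1.42.0, passage as a covariate, a mean per line, fitting only the groups compared, each FS line alone and leaving out each library.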

Additional observations from a re-analysis of the deposited data

Results flagged for a closer look

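For the 2 groups with at least 4 libraries, each gene was searched for a library far from the others by Dixon's test, in 20 checks, of which chance flags about 1 in 20. In ES, Igf2 was at 1.38 CPM at passage 12, from 20 counts, against 0 to 0.226 CPM in the other libraries. Plagl1 in ES was at 98.2 CPM at passage 20, against 5.53 to 15.5 CPM, and without that library the call of FS against ES was lost (edgeR adjusted p 0.0552). Nnat in ES was at 0.425 CPM at passage 20, from 10 counts, against 0.0691 to 0.0911 CPM. In FS, Nnat was at 18.7 CPM in 5ar3 at passage 12, against 57.8 to 77.9 CPM in the other 5 libraries, and it was still above every library of the other groups. The cause of each was not tested.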

How the results depend on the processing

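No paired analysis was possible because replicate numbers here only name passages, in accession order, and link no samples across groups. Of the counts of called genes among the 10, those of FS, EpiSC_AF and EpiSC_AFX against ES, of FS against EpiSC_AF and of the passage slope stayed within 1.5 times the reported count under all alternatives. FS against EpiSC_AFX gave 1 call with no low-count filter and 1 in a test against a log2 change of 1. EpiSC_AFX against EpiSC_AF gave 0 in a test against a log2 change of 1, 3 with DESeq2, 2 with a mean per line and 2 with only these groups fitted, and 1 to 2 with single libraries left out. The line 5ar1 against 5ar3 gave 1 with no low-count filter, 1 with DESeq2, 2 with passage as a covariate and 2 with FS fitted alone. With single libraries left out it gave 0 to 2. Over all genes the first settings gave 751, 1292, 431 and 179 calls in that order, against 720 as reported. The cause of these shifts was not tested.

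Signs that turned belonged to differences that were not called. With 5ar1 as the only FS line, the log2 fold change of FS against EpiSC_AFX became -0.87 for Igf2, -0.0019 for Snrpn, -0.0797 for Sgce, -1.04 for Plagl1, 0.17 for Impact and -0.0401 for H19. With 5ar3 alone, FS against EpiSC_AF became 0.0536 for Peg3 and -0.33 for Impact. Total counts gave 0.0055 for Impact in FS against EpiSC_AFX and a passage slope of 0.19 for Snrpn, and DESeq2 gave a slope of 0.69 for Nnat. With single libraries left out, Snrpn in FS against EpiSC_AFX ran from -0.0654 to 0.18, Impact in FS against EpiSC_AF from -0.14 to 0.20 and Mest in EpiSC_AFX against EpiSC_AF from -0.36 to 0.36. Slopes then ran from -2.08 to 0.32 for Igf2, -0.30 to 0.15 for Snrpn, -0.0747 to 1.18 for Sgce, -1.38 to 1.56 for Nnat, -0.29 to 0.23 for Impact and -2.20 to 2.45 for H19.

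Total counts moved the median of all genes in FS against ES from 0.04 to 0.40, and 70.5% of calls were then higher in FS, against 52.4%. In FS against EpiSC_AFX the share moved from 57.9% to 72.7%, in EpiSC_AF against ES from 52.4% to 66.3% and in EpiSC_AFX against ES from 52.0% to 64.7%. No called gene of the 10, or of the imprinted, neighbour and maintenance lists, changed sign under total counts or DESeq2 size factors. Depth limits H19, Igf2 and Nnat where libraries hold 0 to 20 counts.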

Other observations

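Slc22a3 and Calcr, a transporter gene and the calcitonin receptor gene, both maternally expressed in some tissues, split the 2 FS lines in the direction opposite to most of the 10 genes. Slc22a3 was at 18.4, 5.48 and 5.99 CPM in 5ar1 and at 0.236 to 0.533 CPM in 5ar3, with a log2 change of 4.83 (SE 0.73, edgeR adjusted p 0.00216). Calcr was at 53.9 to 72.3 CPM in 5ar1 and 14.9 to 40.0 CPM in 5ar3, with a log2 change of 1.36 (SE 0.32, edgeR adjusted p 0.0265). Cdkn1c was lower in 5ar1, with a log2 change of -1.18 (SE 0.23, edgeR adjusted p 0.00727), and so was Peg12, with -1.84 (SE 0.36, edgeR adjusted p 0.00832). Of the 18 tested paternally expressed genes, 0 were higher and 2 lower in 5ar1, and of the 21 maternally expressed genes 2 were higher and 2 lower, where 3.88% of all genes were called.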
